A study of Arabidopsis thaliana with 18 samples.

Results

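Ribosome-bound transcripts of dark-grown Arabidopsis thaliana seedlings were compared after 0.5 h of white light and in continued darkness. The comparison used 6 of the 18 arrays of the series, taken by their labels: 3 of polysome RNA from seedlings given 0.5 h of light and 3 of polysome RNA from seedlings kept dark. Both groups were wild-type Col-0, both were 4-day-old etiolated seedlings from agar plates, and only the aerial parts were used. The light was white, at 70 to 80 micromoles per square metre per second. Values from 0.5 h light and dark steady-state RNA (3 arrays each), and from polysome RNA after 4 h of light (3 arrays), are set beside them below. The labels call the arrays of a group biological replicates and number them 1 to 3. They do not say whether equal numbers share a day, a plate or, for the 2 kinds of RNA, the same seedlings.

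A seedling that germinates without light elongates its hypocotyl, keeps its cotyledons closed and holds its plastids as etioplasts. Light absorbed by phytochromes and cryptochromes removes the transcription factors that keep up this growth programme, and releases others, led by HY5, that switch on the genes of a green plant. A messenger RNA carrying several ribosomes is a polysome. It sediments through sucrose faster than free messenger RNA does, so the RNA recovered from polysomes shows which messages were being translated. Genes for auxin-stimulated elongation are known as early-repressed targets in this transition, and stress-type regulators and chaperones are known for fast transient induction.

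Each array was read as 1 linear signal per probe set. Median signals of the 6 polysome arrays lay between 157 and 183.25, and 15922 probe sets were bright enough to test. All arrays had been scaled alike, which hides any shift in how much RNA the polysomes held, and each value below is relative to the rest of that RNA. In whole aerial parts, a change in the number of cells that hold a transcript cannot be told apart from a change in its amount per cell. Markers bore on the labelled tissue only in part. Of 6 listed root genes, 2 had a probe set of their own, EXPA7 and EXPA18 of root hairs, and both lay under the brightness limit. Their summed signal was 47.5, 46.6 and 32.4 after 0.5 h of light and 42.6, 44.2 and 90.2 in the dark. Of 11 listed seed reserve genes, ICL and SDP1 were measured, which work in the use of stored oil. Their summed signal of 7688 to 9391 after light and 7441 to 10093 in the dark overlapped between the groups. Of 9 listed genes of the stomatal lineage and epidermis, 3 had a probe set of their own, with summed signals of 106.4 to 132.2 after light and 82.9 to 229.4 in the dark. With 3 arrays a group precision is limited, and the median standard error (SE) of a log2 change was 0.20.

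The 0.5 h of light changed polysome transcripts about equally in both directions. In the limma fit, 357 of 15922 probe sets (2.24%) passed a Benjamini-Hochberg adjusted p of 0.05, 174 of them higher (1.09%) and 183 lower (1.15%) after 0.5 h of light. Of these, 93 were at least 2-fold higher (0.584%) and 100 at least 2-fold lower (0.628%). The median log2 change was 1.08 among the higher and -1.08 among the lower ones, against 0.00 over all probe sets tested. That median follows from the selection and is only a description. All but 1 of the 174 higher probe sets were higher in 3 of 3 pairs of equally numbered arrays, and 183 of 183 lower ones were lower in 3 of 3. The fit pairs the same arrays by number, so this follows largely from the selection too. The share over all tested probe sets was not counted. The signals of the 2 groups did not overlap for 166 of the higher and 168 of the lower ones. Over all tested probe sets, 5.74% had 3 light signals above the 3 dark ones and 5.53% had them below. Replicate numbers entered the fit as a block, and the number of calls depended on the arrays and the block used. With the 6 compared arrays alone and the block it was 843, with 398 higher and 445 lower. That fit left 2 residual degrees of freedom, against 10 with all arrays. Without the block the number of calls was 208, with 100 higher and 108 lower. It was 219 without light replicate 1 and 234 without dark replicate 1.

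**Figure D1:**
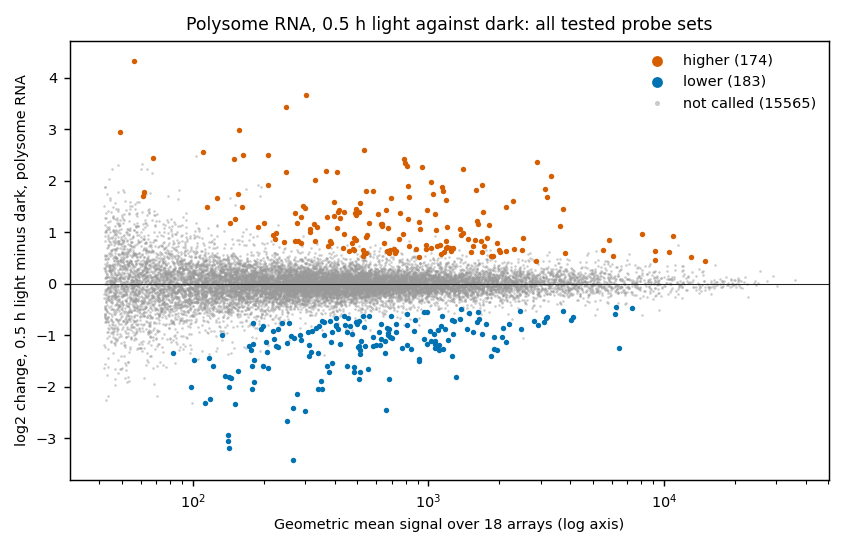
Log2 change in polysome RNA (0.5 h light minus dark, vertical axis) against the geometric mean signal over 18 arrays (horizontal log axis), with 1 point for each of 15922 tested probe sets. The 174 higher (orange) and 183 lower (blue) probe sets lie on both sides of 0 over most of the signal range, and those past the threshold at low signal have large changes.

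The array annotation names 1 gene for 141 of the 357 called probe sets, several for 2 and none for 214. Genes below are therefore drawn from 65 higher and 76 lower genes. The probe sets of largest change were among those without a gene name. Probe set 266841_at had signals of 179.2, 195.9 and 190.9 after 0.5 h of light and 3.5, 9 and 25.9 in the dark, a log2 change of 4.33 ± 0.789 (SE; adjusted p = 0.00194). Probe set 257262_at followed with 755, 598.9 and 426.4 after light and 12.9, 75.1 and 97.3 in the dark, 3.67 ± 0.478 on the log2 scale (adjusted p = 4.48e-05). In both, each light signal was above each dark one, and the low dark signals make the size of the fold uncertain. Among the lower ones, 245276_at had 131, 214.2 and 282.7 after light and 2685, 1877 and 1924 in the dark (log2 change -3.42 ± 0.560, adjusted p = 0.000584). Likewise, 253103_at had 61.5, 120 and 52.4 after light and 661.5, 668.3 and 655 in the dark (-3.18 ± 0.306, adjusted p = 1.55e-06).

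Among named genes, the early rise was led by AT3G14200, AT3G02910 and the zinc-finger transcription factor STZ. STZ is known as a fast-responding repressor in salt, cold and drought stress. Its polysome signal was 599.5, 512.8 and 556.6 after 0.5 h of light, against 51.4, 134.2 and 137.4 in the dark. The rise was 5.65-fold, or 2.50 ± 0.270 on the log2 scale (adjusted p = 4.63e-06). AT3G14200 had 1223, 1261 and 1408 after light, against 141.3, 345.5 and 200.7 in the dark, the largest rise among the genes named by rule (6.05-fold, log2 2.60 ± 0.220, adjusted p = 2.66e-07). AT3G02910 had 1344, 757.6 and 803.3 after light, against 189.1, 154.4 and 180.4 in the dark (5.37-fold, log2 2.43 ± 0.241, adjusted p = 1.82e-06). For all 3 genes the lowest light signal exceeded the highest dark one by a wide margin. The reference table gives AT3G14200 and AT3G02910 no name, so no role is given here.

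Of the 14 genes with the largest rises, chosen by size among those whose groups did not overlap and whose signal reached 100, the other 11 rose by log2 1.42 to 2.01. AT1G14200 had 995.8, 1754 and 1970 after light, against 357.3, 557.8 and 536.2 in the dark (log2 1.67 ± 0.184, adjusted p = 5.38e-06). AT3G07090 was bright in both groups, with 3400, 3032 and 3345 after light and 1049, 1258 and 1159 in the dark (log2 1.50 ± 0.190, adjusted p = 3.26e-05). The spread within each group of AT3G07090 was small beside the distance between them. AT4G27657 (1.74 ± 0.262), AT3G56290 (1.56 ± 0.205) and AT1G13670 (1.46 ± 0.199) also kept their call under every alternative run that tested them. 2 dim genes of this set lost their call in some runs with 1 array left out, as did AT5G51440, given below with the heat-shock list. AT3G07150 rose by log2 1.71 ± 0.433 (adjusted p = 0.0367), and leaving out any 1 of the 6 arrays gave an adjusted p of 0.0854 to 0.219, and no block 0.237. AT4G09970 rose by 1.67 ± 0.357 (adjusted p = 0.00913), with 0.105 without dark replicate 1, 0.0745 without light replicate 2 and 0.0737 without the replicate block.

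**Figure D2:**
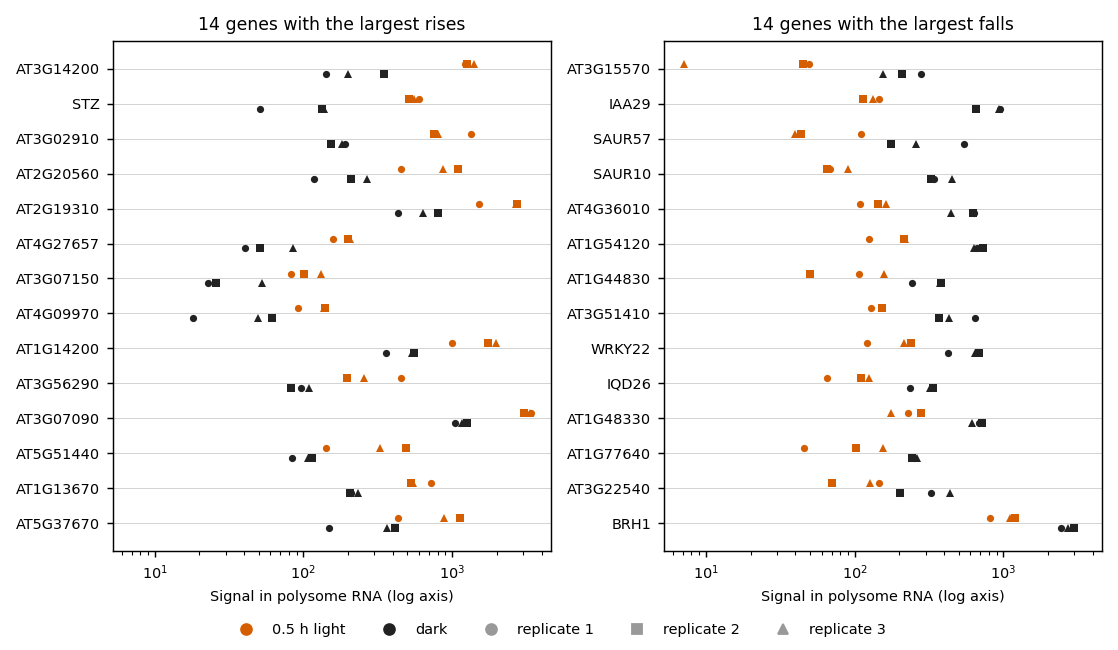
Polysome signals (horizontal log axis) of the 14 named genes with the largest rises (left) and the 14 with the largest falls (right) in each of 3 arrays after 0.5 h of light (orange) and 3 in the dark (black), with the replicate number as the symbol. For each gene the 3 light signals lie on 1 side of the 3 dark ones, as the choice of genes required, and AT3G15570 in light replicate 3 stands at 7.1.

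More than any other list, heat-shock and chaperone genes held genes that rose in polysome RNA. These proteins help others to fold or keep them from clumping, and the genes are best known from heat stress. Of 64 listed genes 10 had a probe set of their own, all 10 were bright enough to test, and 6 of the 10 rose while none fell, against 1.09% of all probe sets called higher. Their median log2 change was 1.31, against 0.00 over all probe sets tested. AT2G19310 was the brightest of the 6, with 1514, 2721 and 2691 after 0.5 h of light, against 435.4, 801.3 and 637.7 in the dark (log2 1.88 ± 0.196, adjusted p = 3.02e-06). AT2G20560 had 455.2, 1096 and 864.5 after light, against 118, 207.8 and 267.9 in the dark (log2 2.01 ± 0.256, adjusted p = 3.26e-05). Replicate 1 was the lowest array in both groups for both genes, and the 3 pairs moved the same way.

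Hop3, a co-chaperone that links Hsp70 with Hsp90, had 327.6, 502.8 and 572.5 after light, against 138.9, 218.5 and 205.7 in the dark (log2 1.31 ± 0.240, adjusted p = 0.00214). AT5G37670 had 429.3, 1127 and 880.9 after light, against 147.5, 413 and 362.5 in the dark (log2 1.42 ± 0.217, adjusted p = 0.000265). In AT5G37670 all 3 pairs moved the same way, and without the replicate block its adjusted p was 0.228. AT5G51440 (log2 1.48 ± 0.327, adjusted p = 0.0124) lost its call without dark replicate 2 (0.0728), dark replicate 3 (0.0944), light replicate 2 (0.152) or the block (0.208). AT5G48570, the FK506-binding protein ROF2 (log2 1.32 ± 0.275, adjusted p = 0.00727), lost it without dark replicate 2 (0.0537) or light replicate 2 (0.106). The list's count of called members was 4 without dark replicate 2, without light replicate 2, without the block or with no intensity trend. The 4 members not called were Fes1A (log2 0.74, adjusted p = 0.0573, and 0.00406 with the 6 compared arrays alone), HSA32 (0.47), Hsp70-2 (0.38) and ATHSP22.0, a small heat-shock protein, at -0.09. The AT-numbered members were placed in the list from general knowledge and with earlier results of these data known. The list's share of called genes, set against that of all probe sets, is therefore a description and not independent evidence.

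A chaperone gene of the plastid rose as well. Cpn60beta2, a subunit of the chaperonin that folds proteins such as Rubisco, had 853.8, 1365 and 1202 after 0.5 h of light, against 336.6, 709.9 and 532.3 in the dark (log2 1.15 ± 0.155, adjusted p = 6.14e-05). SGT1A, a partner of Hsp90 in immune receptor assembly, had 518.7, 750.7 and 546.2 after light, against 266.6, 342.4 and 356.6 in the dark (log2 0.90 ± 0.192, adjusted p = 0.00889). Both groups were apart in each gene. The call of SGT1A ended without dark replicate 1 (0.0654), light replicate 2 (0.115) or the block (0.0556). These and the next genes were picked from the called genes because the reference table names them, after their values were seen.

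Other named genes that rose work in light signalling, protein turnover and metabolism. AFR, an F-box protein of phytochrome A signalling, had 674.8, 424.1 and 469.7 after light, against 181.2, 207.2 and 218.3 in the dark (log2 1.35 ± 0.241, adjusted p = 0.00164). PUB19, a U-box ubiquitin ligase of drought and abscisic acid responses, had 1010, 1036 and 1138 after light, against 408.4, 489.8 and 529.4 in the dark (log2 1.16 ± 0.170, adjusted p = 0.000167). UGT78D2, which adds glucose to flavonols and anthocyanidins, had 356.1, 316.6 and 305.8 after light, against 148.4, 107.8 and 119.2 in the dark (log2 1.39 ± 0.222, adjusted p = 0.000456). Each of these genes had 2.24 to 2.63 times the dark signal, with no overlap. CYTC-2, a cytochrome c of the respiratory chain, rose by 0.96 ± 0.151 (adjusted p = 0.000364). AOR, which reduces reactive carbonyls in the chloroplast, rose by 0.88 ± 0.159 (adjusted p = 0.00177).

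3 further calls were lost in runs with 1 array left out. The organic cation transporter OCT5 rose by log2 0.82 ± 0.185 (adjusted p = 0.0138), and the adjusted p was 0.0598 to 0.0891 with any of 4 arrays left out (replicates 1 and 3 in light, 1 and 2 in the dark) and 0.0556 without the block. The histone chaperone ASF1B rose by 0.87 ± 0.229 (adjusted p = 0.0478), and leaving out any 1 array gave 0.0946 to 0.255 and no block 0.335. LOV1, a gene of the NB-LRR receptor family, had 77.6, 121.2 and 98.3 after light, against 4.9, 11 and 108.4 in the dark. Its groups overlapped, since dark replicate 3 was above 2 of the light signals. Its log2 change of 2.43 ± 0.599 (adjusted p = 0.0297) became 3.47 without that array and 1.099 with 32 added to every signal (adjusted p = 0.0676), which by itself shrinks the changes of dim genes. The call was lost without dark replicate 1 (0.207), dark replicate 2 (0.227), light replicate 1 (0.26), light replicate 2 (0.152), the block (0.368), the filter (0.0525) or the intensity trend (0.0795), and with the 6 arrays alone (0.107).

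IAA29 and both measured SAUR genes, which answer to auxin, were among the named genes that fell most. IAA29, an Aux/IAA repressor whose transcript is known to be high in darkness and shade, had 146.1, 113.9 and 133.9 after 0.5 h of light, against 955.5, 650.6 and 928 in the dark. That is 6.37-fold lower, -2.67 ± 0.227 on the log2 scale (adjusted p = 2.66e-07). SAUR10 (AT2G18010), of the small auxin-upregulated family tied to cell elongation, had 68.7, 65.7 and 90.7 after light, against 340.3, 327.3 and 452.2 in the dark (log2 -2.31 ± 0.332, adjusted p = 0.000134). SAUR57 (AT3G53250), of the same family, had 110.7, 43.8 and 39.7 after light, against 540.8, 175.6 and 258.9 in the dark (-2.33 ± 0.321, adjusted p = 8.14e-05). In all 3 genes every light signal was below every dark one. Only 2 of 80 listed SAUR genes were measured, and both fell, against 1.15% of all probe sets. Without the replicate block the adjusted p of SAUR57 was 0.0528. Of 19 listed Aux/IAA and GH3 genes 3 were measured. IAA29 was called, and the auxin-conjugating enzymes GH3.3 (log2 -0.68, adjusted p = 0.705) and WES1 (-0.08, adjusted p = 0.996) were not. With the 6 compared arrays alone, GH3.3 passed (adjusted p = 0.00215).

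HAT2, BRH1, EXO and BZIP61 fell with smaller folds. HAT2 and BRH1 came by rule, and EXO and BZIP61 were picked from the called genes with a name after their values were seen. HAT2, a homeodomain-leucine zipper factor induced by auxin and shade, had 1211, 1129 and 1055 after light, against 3041, 2464 and 2169 in the dark (log2 -1.17 ± 0.153, adjusted p = 4.96e-05). It was the only measured gene of 23 listed as PIF-regulated or shade genes. BRH1, a brassinosteroid-responsive RING-H2 protein, had 807.8, 1205 and 1102 after light, against 2439, 2960 and 2739 in the dark (-1.40 ± 0.142, adjusted p = 2.21e-06). EXO, a brassinosteroid-induced protein of leaf and cell growth, had 2918, 5045 and 5615 after light, against 8662, 10942 and 11556 in the dark (-1.24 ± 0.170, adjusted p = 7.6e-05). EXO was the brightest of these genes, and its highest light signal was below its lowest dark one. The transcription factor BZIP61 fell by 0.92 on the log2 scale (SE 0.179, adjusted p = 0.00405), a call lost without dark replicate 3 (0.054), light replicate 1 (0.0611) or the block (0.105). BIM1, the 1 measured gene of 11 listed for brassinosteroid signalling, had 0.13 and was not called (adjusted p = 0.96).

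The largest fall of a named gene was that of AT3G15570. Its signals were 49.7, 44.9 and 7.1 after light, against 280.8, 207.9 and 154 in the dark (log2 -3.05 ± 0.471, adjusted p = 0.000314). With 32 added to every signal the change was -1.94, with light replicate 3 the lowest of the 6 arrays. WRKY22, a transcription factor of pathogen and dark-induced responses, had 120.3, 239.8 and 214.2 after light, against 425.1, 685.6 and 643.6 in the dark (-1.64 ± 0.254, adjusted p = 0.000314). The calmodulin-binding protein IQD26 fell by 1.61 on the log2 scale (SE 0.333, adjusted p = 0.00706), with 0.0639 without dark replicate 2 and 0.0761 without light replicate 1. UGT85A2, a glucosyltransferase picked after its values were seen, had 330.6, 291.4 and 409.7 after light, against 939.8, 756.4 and 965.6 in the dark (-1.37 ± 0.199, adjusted p = 0.000149).

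The rest of the 14 largest falls have no name in the reference table. AT4G36010 (log2 -2.04 ± 0.267), AT1G54120 (-1.90 ± 0.245), AT1G44830 (-1.79 ± 0.318), AT1G48330 (-1.59 ± 0.213) and AT3G22540 (-1.48 ± 0.255) were called under every alternative run that tested them. AT3G51410 (-1.70 ± 0.388, adjusted p = 0.0162) and AT1G77640 (-1.49 ± 0.353, adjusted p = 0.0233) were not. Without dark replicate 1, dark replicate 2, light replicate 1 or light replicate 3, the adjusted p of AT3G51410 was 0.0923 to 0.144 and that of AT1G77640 was 0.051 to 0.24. Without the block it was 0.11 for AT3G51410 and 0.27 for AT1G77640.

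Among named cell-wall genes 3 were called, each with pairs that moved alike and groups that overlapped. EXLA2, an expansin-like protein, had 845.1, 531.5 and 321.1 after light, against 1305, 814.5 and 708.8 in the dark (log2 -0.79 ± 0.181, adjusted p = 0.0162). XTH33, an enzyme that cuts and rejoins xyloglucan, had 339.7, 548.3 and 732.2 after light, against 650.3, 881.6 and 1052 in the dark (-0.71 ± 0.173, adjusted p = 0.0263). CSLC04, which makes the xyloglucan backbone and was picked after its values were seen, had 1634, 908.1 and 1124 after light, against 2530, 1413 and 1749 in the dark (-0.64 ± 0.154, adjusted p = 0.0262). All 3 were lower in light in every pair, and none passed without the replicate block (adjusted p = 0.78 for EXLA2, 0.531 for XTH33 and 1 for CSLC04). The call of EXLA2 was lost with any of 4 arrays left out (dark replicates 1 and 3, light replicates 2 and 3; 0.0999 to 0.14). XTH33 was lost without any 1 array other than light replicate 3 (0.0977 to 0.263), and CSLC04 without any of dark replicates 2 and 3 and light replicates 1 and 2 (0.0912 to 0.228). EXLA2 was 1 of 13 measured genes of 36 listed expansins, whose median log2 change was -0.05. XTH33 was 1 of 7 measured of 33 listed xyloglucan genes, with a median of -0.22. Over all probe sets tested, 1.15% were called lower and the median log2 change was -0.002. With the 6 compared arrays alone, EXPA8 (-0.34, adjusted p = 0.0223) and XTH16 (-0.59, adjusted p = 0.00197) passed as well, and XTH16 did so without dark replicate 1 (0.0468).

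3 more genes, picked from the called genes with a name after their values were seen, fell with calls that were lost when 1 array was left out. NAI1, a bHLH factor needed for the ER bodies of seedlings, fell by 0.62 on the log2 scale (SE 0.156, adjusted p = 0.0328), and leaving out any 1 array gave 0.0685 to 0.189 and no block 0.735. For the amidotransferase-like gene GAT1_2.1 the fall was 0.68 (SE 0.169, adjusted p = 0.0304), with 0.0529 to 0.248 without any 1 array and 0.396 without the block, and its second probe set had a change of -0.06. P1R3 fell by 1.12 on the log2 scale (SE 0.238, adjusted p = 0.00825), a call lost without dark replicate 1 (0.0702), dark replicate 2 (0.0559) or the block (0.236).

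**Figure D3:**
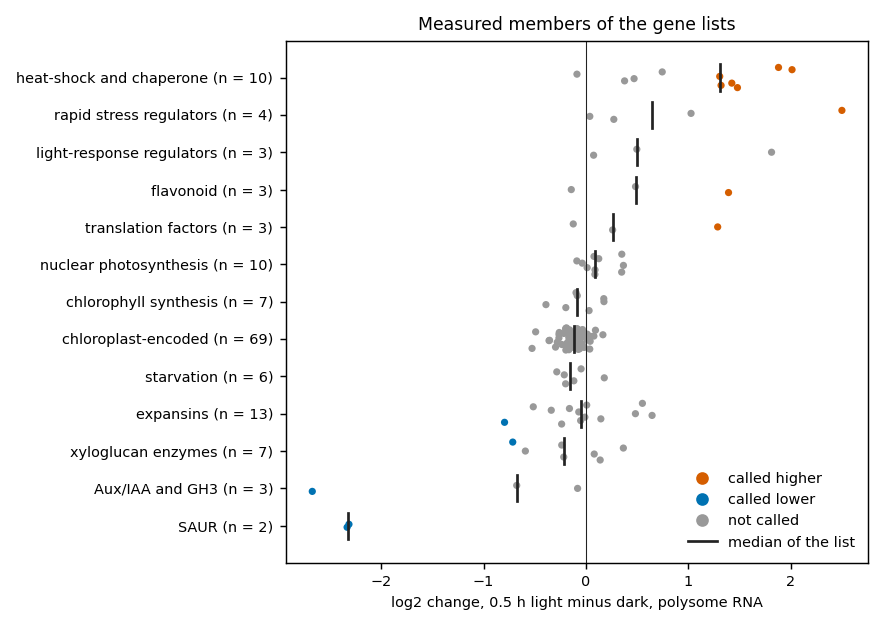
Log2 change in polysome RNA (0.5 h light minus dark, horizontal axis) of each measured member of 13 gene lists, with 1 point per gene and a bar at the median of the list. Heat-shock and chaperone genes lie mostly right of 0 with 6 of 10 called higher, both SAUR genes lie left of -2, and the photosynthesis, chlorophyll, chloroplast-encoded and starvation genes lie close to 0 with none called in the fit of 18 arrays.

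Genes of the photosynthetic machinery had small changes in polysome RNA at 0.5 h, and none was called in the fit of all 18 arrays. That fit called 2.24% of all probe sets, whose median absolute log2 change was 0.15. With the 6 compared arrays alone, also with the replicate block, 5 genes of the machinery were called, on 2 residual degrees of freedom. LHCB4.1, LHCB4.2 and PRK were higher, and PORB and the chloroplast-encoded ndhE were lower. Of 62 listed nuclear photosynthesis genes 10 were measured, with log2 changes of -0.09 to 0.37 and a median of 0.09. LHCB4.1, a minor antenna protein of photosystem II, had 10875, 8550 and 8390 after light, against 9378, 6723 and 5993 in the dark (log2 0.35 ± 0.154, adjusted p = 0.477). Its groups overlapped and all 3 pairs were higher in light, and with the 6 arrays alone the adjusted p was 0.0186. LHCB4.2 of the same family (0.37) and PRK of the Calvin cycle (0.35) had 0.0241 and 0.0239 in that fit, against 0.235 and 0.592 with all arrays. The 7 measured genes of chlorophyll synthesis, of 23 listed, had a median of -0.08, which ran from -0.14 without light replicate 3 to 0.02 without dark replicate 2. PORB, the light-dependent protochlorophyllide reductase, had 10092, 9838 and 9290 after light, against 14027, 12153 and 12192 in the dark. Its 3 light signals were below the 3 dark ones, but the change of -0.39 ± 0.150 on the log2 scale did not pass with all 18 arrays (adjusted p = 0.318) and passed with the 6 arrays alone (adjusted p = 0.0061). Of 85 listed chloroplast-encoded genes, 69 were measured and none was called with all arrays. Their log2 changes ran from -0.53 to 0.17 with a median of -0.11, or -0.20 without light replicate 2, and 60 of 69 were below 0. The lowest was ndhE, a subunit of the NDH complex (-0.53, adjusted p = 0.577, and 0.0281 with the 6 arrays alone). In atpB, a subunit of the plastid ATP synthase, the signals were 29999, 29045 and 29640 after light and 30848, 30178 and 29845 in the dark (log2 -0.04 ± 0.103).

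Classic light-response regulators were barely covered by the array annotation, with 3 of 27 listed genes measured and none called. HYH, the bZIP partner of HY5, had 161, 107.3 and 116 after light, against 119.4, 73.6 and 81.2 in the dark (log2 0.50 ± 0.280, adjusted p = 0.709). AT3G44450 had 72.8, 80.2 and 64.8 after light, against 8, 16.8 and 65 in the dark (log2 1.81 ± 0.674, adjusted p = 0.287). Dark replicate 3 of AT3G44450 lay within the range of its light signals. In steady-state RNA the same gene changed by log2 3.04 (adjusted p = 0.0115). AT3G52740 was dim, with 58.1, 2.6 and 9.2 after light, against 4.6, 19.9 and 13 in the dark (log2 0.07 ± 0.862). The 6 measured genes of the starvation list were MCCA, MCCB, IVD, bZIP44, BZIP53 and AKINBETA1. They had a median log2 change of -0.16 and no call, where 2.24% of all probe sets were called. That median ran from -0.25 without dark replicate 1 to -0.04 without light replicate 1. MCCA of leucine breakdown had 9593, 12359 and 12042 after light, against 9982, 13446 and 11741 in the dark.

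Elsewhere in the lists, 1 of 4 measured rapid stress regulators rose (STZ), against 1.09% of all probe sets. The ubiquitin ligase PUB23 had a log2 change of 1.03 (adjusted p = 0.224, and 0.0421 with the 6 compared arrays alone), and its relative PUB22 of 0.04. Among 3 measured flavonoid genes UGT78D2 rose, and UGT78D1, which adds rhamnose to flavonols, had -0.14 (adjusted p = 0.998). Of 3 measured translation factors 1 rose. It was AT5G12110, with 232.6, 367.2 and 407.3 after light, against 140.6, 135.1 and 126.3 in the dark (log2 1.29 ± 0.227, adjusted p = 0.0014). The initiation factor EIF4A-2 had -0.12. The remaining lists with 1 or 2 measured genes gave no call: EIN3 of ethylene signalling (log2 0.01), the gibberellin receptors GID1A (-0.18) and GID1B (-0.25), the response regulator RR16 (0.05), the clock gene GI (0.29), LYC of carotenoid synthesis (0.05), and the phytochrome A partner FHL (-0.28). The stomatal factors FMA (-0.39) and SPCH (-0.63) and the seed genes ICL (0.01) and SDP1 (-0.05) were not called either. None of 18 listed JAZ genes was matched to a tested probe set of its own. The cytosolic ribosomal protein genes could not be listed in full, because the reference table holds no descriptions, and they are not analysed here. In all, 15 of the 153 measured list members were called, 9 higher and 6 lower, against 2.24% of all probe sets, and 25 with the 6 compared arrays alone (14 higher and 11 lower).

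The next comparison asked whether polysome RNA changed differently from the total transcript pool in the first 0.5 h, by testing the polysome change minus the steady-state change. No probe set of 15922 passed (0%) in limma, and the lowest adjusted p was 1. An unadjusted p under 0.05 was found for 569 probe sets (3.57%), a smaller share than the 0.05 expected if no probe set differed. The count that passed was 0 under every alternative run, among them each of the 12 arrays left out in turn. The 569 became 257 without the replicate block and 1364 without light 0.5 h steady-state replicate 1. Those 1364 are a larger share of the 15922 than 0.05, so the comparison with that share depended on 1 array. The median SE of this difference was 0.28 on the log2 scale, so only large differences could have been seen in single genes.

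Steady-state RNA on its own had 409 calls (2.57%), 197 higher (1.24%) and 212 lower (1.33%). It had 227 without the block, and 892 (297 higher and 595 lower) without light 0.5 h steady-state replicate 1, so the overlaps below hold for the fit of all arrays. Of the 174 probe sets higher in polysome RNA, 171 had a steady-state change above 0, and 125 were called higher there (125 of the 197). Of the 183 lower in polysome RNA, 182 had a steady-state change below 0, and 137 were called lower there (137 of the 212). No probe set was called in opposite directions. The median steady-state change was 1.04 for the higher and -0.94 for the lower ones, against 0.02 over all probe sets. Since the probe sets were chosen on their polysome values, these medians are a description. Both sets of calls come from 1 fit with 1 shared estimate of the spread per probe set. The calls are therefore not independent, and their overlap is a description as well.

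**Figure D4:**
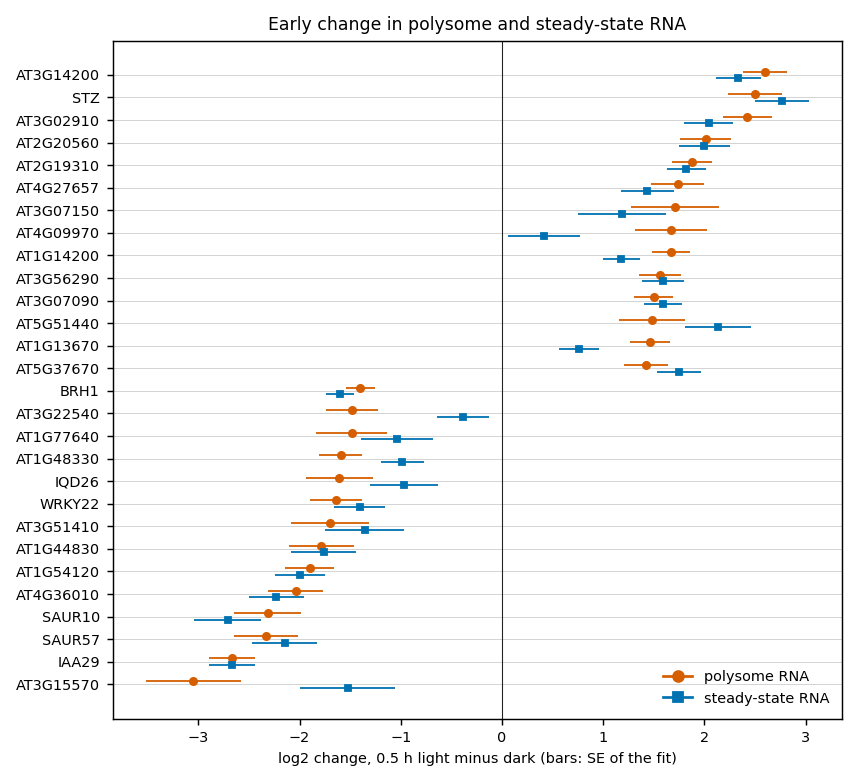
Log2 change (0.5 h light minus dark, horizontal axis) of the 28 genes with the largest rises and falls in polysome RNA (orange circles) and steady-state RNA (blue squares), with bars of 1 SE of the fit. Both kinds of RNA moved to the same side of 0 in each gene, and the symbols stand farthest apart for AT4G09970, AT1G13670, AT3G22540 and AT3G15570.

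For the leading genes both changes can be set side by side. IAA29 changed by log2 -2.67 in polysome RNA and -2.67 in steady-state RNA, and the 95% interval of the difference ran from -0.68 to 0.66. STZ changed by 2.50 and 2.77, with an interval of -1.06 to 0.53. For AT2G19310 the 2 changes were 1.88 and 1.82 (-0.52 to 0.63), and for HAT2 they were -1.17 and -1.19 (-0.43 to 0.48). These intervals leave room for differences of up to about 1 log2 unit in STZ and less in the others. Hop3 changed by 1.31 in polysome and 1.98 in steady-state RNA, with an interval of -1.38 to 0.03, and UGT78D2 by 1.39 and 1.97 (-1.23 to 0.08). The intervals of these genes include 0.

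Of the 28 genes with the largest changes, 4 had intervals that left out 0 before any adjustment over genes. AT3G22540 changed by log2 -1.48 in polysome RNA and -0.39 in steady-state RNA, a difference of -1.10 with an interval of -1.85 to -0.35. AT4G09970 changed by 1.67 and 0.41 (difference 1.26, interval 0.21 to 2.31), and AT1G13670 by 1.46 and 0.76 (0.70, interval 0.11 to 1.29). AT3G15570 changed by -3.05 and -1.52 (-1.52, interval -2.91 to -0.14). Each of these had an adjusted p of 1 for the difference. The intervals are not adjusted for the number of genes, and the genes were chosen for large polysome changes.

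Among all probe sets that list 1 gene, the 3 genes of lowest p for the difference were AT5G26731, AT1G29070 and AT3G51510, none of them called. AT5G26731 had polysome signals of 117, 166.5 and 190.4 after light and 259.9, 302.3 and 292.1 in the dark, and its steady-state change was 0.40. The difference was -1.28 (interval -1.93 to -0.63, unadjusted p = 0.000501). Its own polysome change of -0.88 was called (adjusted p = 0.0344) but lost without any 1 array (0.0615 to 0.248) or the block (0.15). AT1G29070 had a log2 change of 0.34 in polysome RNA and -0.31 in steady-state RNA (difference 0.65, interval 0.30 to 1.01, unadjusted p = 0.00107). AT3G51510 had 0.53 and -0.28 (0.81, interval 0.35 to 1.26, unadjusted p = 0.00132). Their polysome changes passed only with the 6 compared arrays alone (adjusted p = 0.0232 for AT1G29070 and 0.0115 for AT3G51510).

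The polysome signals at 4 h place the early changes in time. The values share the 0.5 h and dark arrays with the main comparison, so they are set side by side only. At 4 h, 42.8% of probe sets were called against 0.5 h (18.3% higher and 24.5% lower) and 44.7% against the dark. Some early rises were transient. AT1G14200 had 378.5, 590.4 and 411.2 at 4 h, close to its dark signals, and was lower at 4 h than at 0.5 h (log2 -1.74 ± 0.184, adjusted p = 1.3e-07). For PUB19 the signals at 4 h were 434.7, 683 and 574.1, a change of -0.93 ± 0.170 from 0.5 h (adjusted p = 0.000132). AT5G37670 of the heat-shock list was lower at 4 h than at 0.5 h (-1.16 ± 0.217, adjusted p = 0.000176), as was AT4G27280, picked after its values were seen (-0.97 ± 0.187, adjusted p = 0.000237). For these 4 genes the change at 4 h against the dark was between -0.07 and 0.27 and was not called. STZ fell in part between 0.5 h and 4 h (-1.01 ± 0.270, adjusted p = 0.00452) and was still above the dark by log2 1.49. AT3G14200 did likewise (-1.10 ± 0.220, adjusted p = 0.000361), at log2 1.50 above the dark.

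**Figure D5:**
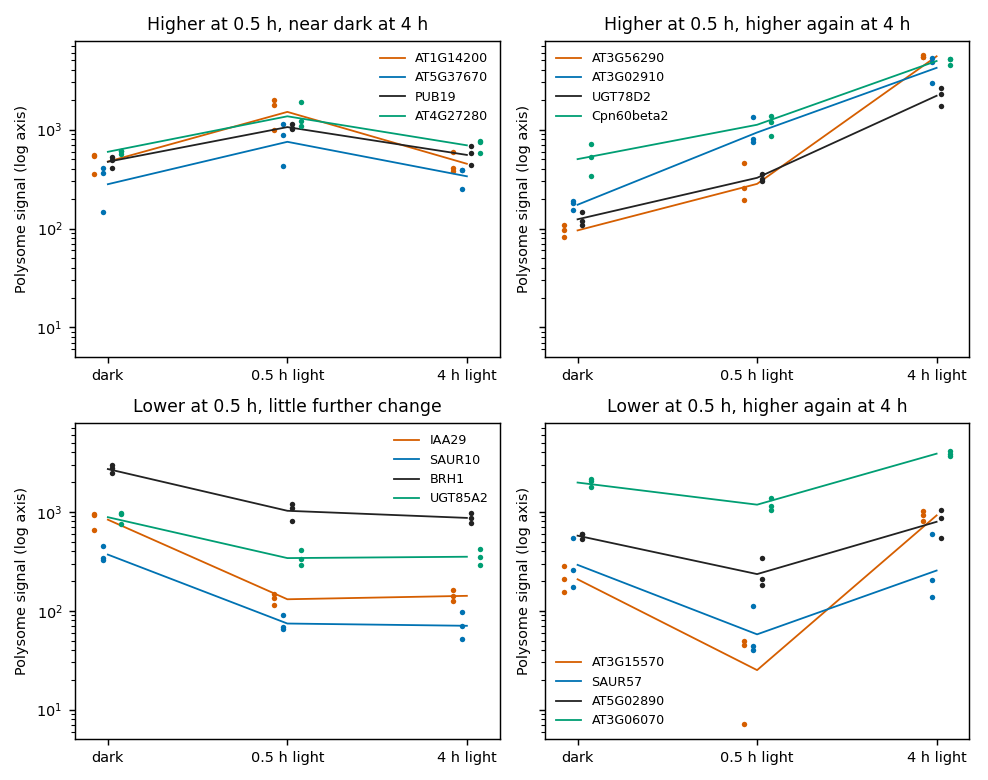
Polysome signals (vertical log axis) of 16 named genes in the dark, at 0.5 h and at 4 h of light, with 1 point per array, 3 arrays per time, and a line through the geometric means. The panels show 4 genes each that were higher at 0.5 h and near the dark level at 4 h, higher at both times, lower with little further change, and lower at 0.5 h but above that level at 4 h; genes were chosen for these patterns after their values were seen.

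Other early rises went on. AT3G56290 had 5420, 5433 and 5661 at 4 h, and its change between 0.5 h and 4 h was 4.28 ± 0.205 on the log2 scale (adjusted p = 1.17e-12). AT3G02910 had 5263, 4798 and 2950 at 4 h (2.17 ± 0.241, adjusted p = 2.68e-07). UGT78D2 rose by a further 2.76 ± 0.222 (adjusted p = 2.25e-09), Cpn60beta2 by 2.14 ± 0.155 (adjusted p = 4.41e-10), AFR by 1.57 ± 0.241 (adjusted p = 1.9e-05), and AT5G12110 by 2.12 ± 0.227 (adjusted p = 1.5e-07). The 6 called genes of the heat-shock list differed in this. AT5G48570 (1.16 ± 0.275, adjusted p = 0.00171) and AT5G51440 (0.95 ± 0.327, adjusted p = 0.0231) rose further between 0.5 h and 4 h, and AT5G37670 fell as given above. AT2G19310 (0.39, adjusted p = 0.12), AT2G20560 (-0.43, adjusted p = 0.185) and Hop3 (-0.03, adjusted p = 0.935) did not pass. HYH, not called at 0.5 h, rose by 3.69 ± 0.280 between 0.5 h and 4 h (adjusted p = 8.96e-10), and LHCB4.1 by 1.07 ± 0.154 (adjusted p = 8.39e-06).

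Among the early falls, IAA29 had 124.5, 141.1 and 161.1 at 4 h, a change of 0.11 ± 0.227 from 0.5 h (adjusted p = 0.722). SAUR10 (-0.08, adjusted p = 0.877), BRH1 (-0.24, adjusted p = 0.188) and UGT85A2 (0.05, adjusted p = 0.877) also did not pass between these times, and all 4 were lower at 4 h than in the dark by log2 1.33 or more. HAT2 fell further (-1.25 ± 0.153, adjusted p = 1.08e-06), and so did EXLA2 (-1.97 ± 0.181, adjusted p = 1.66e-08). A different set fell at 0.5 h and was higher at 4 h. SAUR57, unlike SAUR10, had 590.2, 205 and 136.8 at 4 h, a rise of 2.14 ± 0.321 from 0.5 h (adjusted p = 1.4e-05) to within -0.19 of the dark level. AT3G15570 had 937.3, 810.4 and 1022 at 4 h, above both its 0.5 h and its dark signals, by 5.19 ± 0.471 (adjusted p = 1.32e-08) and 2.14 ± 0.471 (adjusted p = 0.000788). AT5G02890 (-1.29 ± 0.210 at 0.5 h) rose by 1.75 ± 0.210 between 0.5 h and 4 h (adjusted p = 7.37e-07), and AT5G44680 (-0.99 ± 0.156) by 1.37 ± 0.156 (adjusted p = 3.57e-07). AT3G06070 had -0.74 ± 0.144 at 0.5 h, a call lost without light replicate 3 (0.0574), and rose by 1.71 ± 0.144 between 0.5 h and 4 h (adjusted p = 4.33e-09). The last 3 genes were picked after their values were seen.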

How the data were processed

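Polysome and steady-state RNA was hybridised to Affymetrix arrays as biotin-labelled cRNA, per the labels' protocols. The deposited values are linear signal intensities, and the submitters' processing notes name MAS5, with no settings. The 2% trimmed mean of each array lay between 500.04 and 500.05. From 22810 probe sets, 64 controls were left out, 915 values under 1 were set to 1, and log2 was taken. Probe sets at or over the 30th percentile of mean log2 signal were tested (15922, geometric mean signal at least 42.089). Gene names came from the platform annotation, updated through RefSeq's TAIR10.1 gene table: 8788 tested probe sets list 1 gene, 326 several and 6808 none. No array build is named, so coordinates are not given, and detection calls were not used here.

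Changes were tested in R 4.3.3 with limma 3.58.1 (lmFit, eBayes with intensity trend) over 18 arrays, with 6 group means and the replicate number as a block, and Benjamini-Hochberg adjustment over all probe sets tested. The scripts were tested on simulated data. Equal replicate numbers pair the arrays in the data: deviations from the group means correlated at 0.40, 0.24 and 0.43 for equal numbers between 0.5 h light and dark polysome RNA, and at -0.01 or less for unequal ones. Deviations within a group cancel out, so the negative values follow in part from the positive ones and are not separate evidence. The labels give no basis for the pairing. Where the arrays of a group are not separate cultures, p-values measure only the spread between those arrays.

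Named genes are the 14 largest rises and 14 largest falls among called genes whose groups do not overlap and whose brighter group reaches a signal of 100, up to 3 called members of each of 26 gene lists (otherwise the brightest), and the 3 lowest p of the difference. Other genes named are list members, or were picked after their values were seen. The comparison, the members and the lists were chosen with earlier results of these data known. Shares of called list members set against all probe sets are therefore descriptions. Alternatives were no block, only the arrays compared, leaving out each array in turn, quantile normalization, a common median, no trend, no filter, a filter at the 50th percentile (11373 probe sets), and 32 added to each signal. A planned description of promoter motifs was not made.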

Additional observations from a re-analysis of the deposited data

How the results depend on the processing

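The polysome count of 357 calls became 208 without the replicate block and 843 with the 6 compared arrays alone (398 higher and 445 lower), of which 352 were among the 357. With 1 array left out it ran from 219 to 276, with 97 higher and 122 lower without light 0.5 h polysome replicate 1. Between 269 and 388 were found with no intensity trend, no filter, the stricter filter, quantile normalization, a common median or 32 added to each signal. The steady-state count of 409 became 227 without the replicate block and 288 to 892 with 1 array left out, 892 (297 higher and 595 lower) being without light 0.5 h steady-state replicate 1. The count of called list members was 25 with the 6 compared arrays alone (14 higher and 11 lower), against 15, and 11 to 14 with 1 array left out. Of 56 named genes with a call, 34 kept it under every alternative run that tested them, while 19 lost it without the replicate block and 20 when some 1 array was left out, as given beside them. The stricter filter left some of the 34 untested, among them STZ, SAUR10, AT3G15570, AT4G27657 and AT1G44830. Genes near 0 changed sign without a call: RR16 under quantile normalization (-0.0368) and with 1 array left out (-0.463 to 0.39), EIN3 likewise (-0.0163, and -0.0892 to 0.128), ICL (-0.0678 to 0.119), atpB (-0.0819 to 0.0147) and MCCA (-0.179 to 0.0903). Of 168 recomputed list medians, 19 moved by over 1 SD of the pairs. Beside those given above, the Aux/IAA and GH3 median of -0.68 ran from -0.99 to -0.47, and that of the translation factors (0.26) from 0.16 to 0.38. That of the rapid stress regulators (0.65) was 0.88 without dark replicate 1. Under the stricter filter only 1 gene of that list was tested, PUB22, so the value of 0.04 is that of 1 gene. The expansin median (-0.05) was -0.16 under that filter, over the 9 genes left. The cause of these changes was not tested. Signals near background limit the dim genes.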

Other observations

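The called genes had lower median lengths than all tested genes. The median genomic length was 1463 bases for the 65 genes higher in polysome RNA after 0.5 h of light and 1691 bases for the 76 lower ones, against 2301 bases for the 8677 tested genes with a length. The called genes also differed in level: the median geometric mean signal of the higher probe sets was 803.3 after light and 344.6 in the dark, that of the lower ones 476.3 after light and 1065 in the dark, and over all tested probe sets 357.1 after light and 359.5 in the dark. These values follow in part from the selection of calls and carry no test.

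AT1G21830, picked because it is 1 of 2 called genes with several tested probe sets, was called lower by 1 of them (log2 -0.95, adjusted p = 0.000397) and not by the other (-0.58, adjusted p = 0.173), both below 0.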
